A study of Mus musculus with 22 samples.

Results

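The transcriptional response of mouse embryoid bodies to 10 nM tetrabromobisphenol A (TBBPA), a brominated flame retardant, was followed over 5 days of differentiation. Embryoid bodies are aggregates of embryonic stem (ES) cells in which derivatives of the germ layers form, and those studied here came from J1, an ES cell line of the mouse. The comparison took the 5 libraries with 10 nM TBBPA, 1 at each of days 4, 9, 12, 18 and 28, against the 10 libraries with the vehicle, 0.1% dimethyl sulfoxide (DMSO), 2 at each of those days. These 15 libraries are part of 22 in the series, chosen by dose and day as read from the sample titles, and the 5 libraries with 100 nM TBBPA were used only where the doses are set side by side. The labels do not state whether the TBBPA cultures also received the vehicle or when exposure began.

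Pluripotent ES cells express a network of transcription factors around Pou5f1 and Nanog, which is shut down as an embryoid body differentiates. Signals of the Nodal, BMP, Wnt and FGF families then direct cells towards mesoderm, endoderm or neural ectoderm, and low Nodal and BMP signalling favours the neural path. TBBPA is known to bind the thyroid hormone carrier transthyretin and to activate PPAR gamma, a nuclear receptor of adipocyte differentiation, in cell assays.

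Total expected counts were 18158583 to 18998141 in the 15 libraries, and 16736 to 17816 genes were listed in each. Of 49 markers of pluripotent, neural, glial, muscle, blood, epithelial, endodermal and other cells, 46 reached 1 CPM in at least 1 library with 10 nM and 47 in at least 1 with DMSO. Mesp1 of early mesoderm and Gata1 of red cells reached it in none, and Ptprc of leukocytes reached it in 0 of 5 libraries with 10 nM and 2 of 10 with DMSO. The paired DMSO libraries of a day differed from each other by a chi-square of 1.63 to 3.38 per gene, above the 1 that sampling alone gives, so they were kept as separate samples. The labels do not say that libraries came from separate cultures, so p-values measure only how far these libraries spread, and that spread may be technical.

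With 10 nM TBBPA, averaged over the 5 days, 24 of 30 neuron genes rose, and 14 of 25 pluripotency, 13 of 20 epithelial, 10 of 12 skeletal muscle and 14 of 22 fibroblast matrix genes fell. In edgeR's quasi-likelihood test with the day as a factor, 2145 of 15952 genes (13.4%) passed at an adjusted p under 0.05, of which 1164 were higher (7.30%) and 981 lower (6.15%). Most changes were small, with a median log2 change of 0.30 among the genes that rose and -0.38 among those that fell, and 13 rises and 68 falls exceeded 2-fold. Over all genes tested the median was 0.015.

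Of the 1164 genes that rose, 589 were higher than the DMSO mean at all 5 days and 331 lay above both DMSO libraries at all 5. Among the 981 that fell, 607 were lower at all 5 days and 430 lay below both DMSO libraries at all 5. With each DMSO pair summed to 1 library (5 against 5), 277 of 16411 genes passed (1.69%), 105 higher (0.640%) and 172 lower (1.05%), and 273 of them also passed with the pairs kept apart. The balance of directions depended on the setting: log2(FPKM + 1) in limma called 474 genes higher and 812 lower, and log2(FPKM + 0.1) called 363 and 685. The count fell to 1000 without the day 18 library at 10 nM and to 1264 without the day 12 library.

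The 12 largest rises that met the naming rule ran from 0.73 to 0.91 on the log2 scale. Stmn3, a stathmin of neurons that acts on microtubules, had 3.99, 4.05, 25.1, 76.9 and 10.7 CPM at days 4, 9, 12, 18 and 28 with 10 nM, against DMSO pairs of 3.22 and 3.03, 3.14 and 2.48, 11.1 and 9.25, 36.6 and 35.8, and 7.08 and 6.89 CPM. It was above both DMSO libraries at every day, and its log2 change was 0.91 ± 0.10 (SE), a 1.88-fold rise with an adjusted p of 4.41e-05. Tubb3, the neuronal beta tubulin, had 5.2, 75.8, 260, 431 and 34.5 CPM with 10 nM, against DMSO pairs of 5.04 and 5.51, 48.6 and 48.2, 118 and 124, 221 and 233, and 26.6 and 24.4 CPM. The groups overlapped at day 4, and the 10 nM library was higher at the other 4 days, with a log2 change of 0.77 ± 0.09 and an adjusted p of 0.000288.

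Transcription factors of neural patterning were among the same 12. Foxb1, a forkhead factor of the developing brain and spinal cord, had 0, 32.1, 30.6, 13.5 and 4.54 CPM with 10 nM, against DMSO pairs of 0.0607 and 0.0605, 17.7 and 18.2, 15.1 and 13.7, 7.01 and 7.28, and 3.72 and 2.67 CPM. Dbx1, a homeodomain factor of interneuron progenitors, had 0.0605, 15.3, 57.4, 42.3 and 3.41 CPM with 10 nM, against DMSO pairs of 0 and 0, 10.1 and 9.43, 28.7 and 24.8, 21.7 and 20.7, and 3.06 and 3.65 CPM. Both genes were close to 0 in every library of day 4 and above both DMSO libraries at days 9, 12 and 18. Foxb1 rose by 0.87 ± 0.09 (adjusted p = 1.74e-05) and Dbx1 by 0.84 ± 0.10 (adjusted p = 0.000121) on the log2 scale.

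The other 8 rises were Syt4, a synaptotagmin (0.89), Celf3, an RNA-binding protein of the brain (0.83), Dpysl4, a collapsin response mediator (0.81), Gprin1, a protein of neurite outgrowth (0.79), Atcay, the neuronal protein caytaxin (0.79), the cadherin Cdh8 (0.74), Fabp7, the fatty acid binding protein of radial glia (0.73), and Ctnna2, the neural alpha catenin (0.73, all log2 changes). Across these 12 genes the difference at day 12 ran from 0.75 to 1.35, and the difference at day 4 from -0.92 to 0.84. Levels at day 4 were low for several of them, as for Fabp7 with 0.0605 CPM at 10 nM against 0.243 and 0.182 CPM with DMSO.

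The 12 largest falls that met the rule ran from -1.23 to -0.72 on the log2 scale and lay below both DMSO libraries at all 5 days for each of the 12 genes named, for Pax1 at day 4 by less than the printed digits. Adgrf5, an adhesion receptor known from lung surfactant balance, had 0.302, 5.99, 8.92, 7.47 and 5.88 CPM with 10 nM, against DMSO pairs of 0.668 and 0.605, 12.7 and 12.3, 23.2 and 24.1, 20.3 and 19.9, and 11.9 and 11.1 CPM. Its log2 change was -1.23 ± 0.08, a 2.34-fold lower level with an adjusted p of 1.29e-07. Rhox9, an X-linked homeobox gene of placenta and gonads, had 0.967, 8.59, 7.18, 7.57 and 4.54 CPM with 10 nM, against DMSO pairs of 1.28 and 1.27, 24.1 and 24.1, 17.7 and 18.4, 16.7 and 17.4, and 8.61 and 8.12 CPM. Rhox9 fell by 1.20 on the log2 scale (SE 0.09, adjusted p = 8.88e-07), and its difference was least at day 4.

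Pax1, a transcription factor of the sclerotome, had 0.0605, 1.73, 5.38, 4.5 and 13.5 CPM with 10 nM, against DMSO pairs of 0.364 and 0.0605, 4.06 and 5.07, 9.06 and 8.11, 10.5 and 9.7, and 31.9 and 32.7 CPM. At day 4 the lower DMSO library and the 10 nM library printed the same level, and at the later days the groups were apart, with a log2 change of -1.11 ± 0.12 (adjusted p = 2.08e-05). The remaining falls were 3830417A13Rik (-1.07), Lgals3, the lectin galectin-3 (-0.95), Pakap (-0.82), Fstl3, an activin-binding follistatin-like protein (-0.81), the keratin Krt17 (-0.77), Rec114 of meiotic recombination (-0.74), AU018091 (-0.74), Pramef12, a germline member of the PRAME family (-0.74), and Rbm44, an RNA-binding protein of germ cells (-0.72, all log2 changes). In the heat map of the named genes by day, the differences of the falls were below 0 at each day. The naming rule asked for the same sign at 4 or more of 5 days, so the map is no test of when the falls began. Levels at day 4 were low for some, as for Pax1 above and for Adgrf5 with 0.302 CPM at 10 nM against 0.668 and 0.605 CPM with DMSO.

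**Figure D1:**
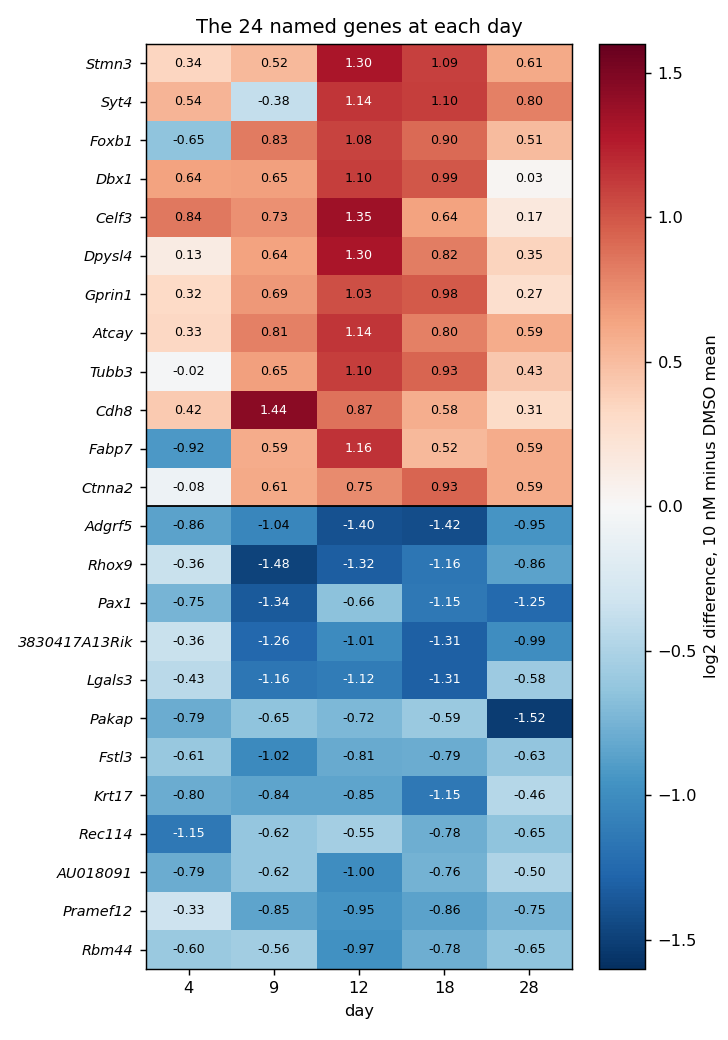
Log2 difference of the 10 nM library from the DMSO mean at each day (columns) for the 12 named rises (upper rows) and 12 named falls (lower rows), 1 library at 10 nM and 2 with DMSO per day. At day 12 all 12 rises lie between 0.75 and 1.35, and every cell of the falls is below 0.

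Neuron genes were the list with the largest share of rises among the 38 lists of lineages, pathways and responses. Of 30 neuron genes tested, 24 rose, 0 fell and 6 did not pass, with a median log2 change of 0.58 against 0.015 over all genes. The set covers proneural factors, cytoskeleton, vesicle proteins and transmitter enzymes. Embryoid bodies were sequenced as bulk RNA, in which more or fewer cells of a type and more or less RNA per cell cannot be told apart. With the DMSO pairs summed, 9 of the 30 rose and 0 fell, and log2(FPKM + 0.1) in limma called 14.

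Elavl3, an RNA-binding protein of neurons, had 14.6, 16.3, 75.3, 183 and 17.7 CPM with 10 nM, against DMSO pairs of 9.72 and 13.2, 10.1 and 8.95, 36.3 and 37.8, 106 and 108, and 13.2 and 12.4 CPM. Dcx, the microtubule protein doublecortin of migrating neurons, had 0.242, 7.67, 63.4, 175 and 10.3 CPM with 10 nM, against DMSO pairs of 0.121 and 0.121, 4.06 and 4.91, 33.6 and 38, 124 and 125, and 8.96 and 8.12 CPM. Both were above both DMSO libraries at all 5 days, with log2 changes of 0.73 ± 0.08 for Elavl3 (adjusted p = 4.49e-05) and 0.60 ± 0.07 for Dcx (adjusted p = 4.64e-05). Scg3, a secretogranin of secretory granules, rose by 0.59 ± 0.07. The proneural factor Neurog1 rose by 0.84 ± 0.14. The summed level of the neuron list was 1468 CPM at day 12 and 2648 CPM at day 18 with 10 nM, against 776 and 789 CPM and 1628 and 1673 CPM with DMSO.

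The promoters of Stmn3 and Elavl3 are shown as those of 2 neuron genes that were above both DMSO libraries at all 5 days. The letters searched were CAGCTG, an E-box that basic helix-loop-helix factors such as Myod1 are known to bind, which reads the same on both strands. The windows are the 250 bases before the annotated start in RefSeq on GRCm38.p6, written 5′ to 3′ in the direction of the gene, with the motif in capitals. Stmn3 lies at chr2:181314501-181314750 on the minus strand and holds 0 copies, and Elavl3 at chr9:22052024-22052273 on the minus strand holds 1. The motif was in 4 of the 16 neuron genes that rose and had a window (25%, of 24 that rose), in 3979 of 27025 genes with a window (14.7%), and in 4271 of all 32851 windows (13%). These letters are a description of the window and say nothing of binding.
Stmn3: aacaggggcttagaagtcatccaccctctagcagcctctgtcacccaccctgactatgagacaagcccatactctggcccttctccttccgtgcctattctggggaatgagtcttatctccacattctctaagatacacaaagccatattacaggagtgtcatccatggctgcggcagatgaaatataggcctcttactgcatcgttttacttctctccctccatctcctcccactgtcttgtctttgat
Elavl3: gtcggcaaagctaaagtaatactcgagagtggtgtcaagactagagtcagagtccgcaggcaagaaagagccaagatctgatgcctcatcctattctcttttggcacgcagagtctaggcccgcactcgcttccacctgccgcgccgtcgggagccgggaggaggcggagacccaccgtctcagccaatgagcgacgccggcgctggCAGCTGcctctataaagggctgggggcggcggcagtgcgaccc

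Neural progenitor genes moved with the neuron genes, with 12 of 22 higher, 0 lower and a median of 0.35. Hes5, a Notch effector that keeps neural progenitors undifferentiated, had 0.302, 9.4, 48.1, 15.1 and 1.39 CPM with 10 nM, against DMSO pairs of 0.304 and 0.121, 5.68 and 5.28, 16 and 15.7, 10.8 and 10.2, and 1.02 and 1.23 CPM. It was within the DMSO pair at day 4 and above it at the other days, with a log2 change of 0.97 ± 0.15 (adjusted p = 0.000545) and a difference of 1.59 at day 12. Pou3f2 rose by 0.70 ± 0.08, Sox1 by 0.58 ± 0.08 and Pax6 by 0.45 ± 0.10, all factors of the neural plate or its progenitors. Sox2, which pluripotent and neural cells share, had a log2 change of 0.02 ± 0.07 and did not pass. With the DMSO pairs summed, 3 of the 22 rose, and log2(FPKM + 0.1) in limma called 5. Neurog1 and Sox2 were picked for naming after their values were seen.

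Genes of Notch and hedgehog signalling contributed 7 rises and 1 fall of 25 tested. Beside Hes5, the Notch ligand Dll3 rose by 0.57 ± 0.10 and Lfng, a glycosyltransferase that modifies Notch, by 0.48 ± 0.09. Shh, the hedgehog ligand of floor plate and gut, had 0, 42.2, 74.8, 34 and 10.3 CPM with 10 nM, against DMSO pairs of 0.0607 and 0, 33.3 and 30.6, 36.2 and 34.8, 29.3 and 29, and 4.99 and 5.5 CPM. Shh was above both DMSO libraries from day 9 on and rose by 0.65 ± 0.11 (adjusted p = 0.00197). With 100 nM, Shh had a log2 change over DMSO of -0.05 ± 0.21, and 14.3 CPM at day 9. The rises numbered 11 without the day 28 library at 10 nM and 4 without day 12, and the fall was lost without the 10 nM library of day 18 or day 28. With the DMSO pairs summed, 1 of the 25 rose and 0 fell, and the adjusted p was 0.0648 for Shh, 0.0754 for Dll3 and 0.0679 for Lfng.

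Of 32 axon guidance genes, 10 rose and 4 fell, with a median of 0.14. Robo1, a Slit receptor, rose by 0.26 ± 0.04 and Epha5, an ephrin receptor, by 0.78 ± 0.14, while Nrp1, a semaphorin and VEGF co-receptor, fell by 0.30 on the log2 scale (SE 0.06). With the DMSO pairs summed, 2 rose and 0 fell, and Nrp1 had an adjusted p of 0.0799. Without the day 18 library at 10 nM, 6 rose. The falls were 1 without the day 28 library at 10 nM, and 2 without the 10 nM library of day 12 or 18, the second DMSO library of day 12 or either DMSO library of day 18 or 28. Of 15 genes of radial glia, astrocytes and oligodendrocytes, 6 rose and 0 fell, and limma on FPKM called 3 rises. Gfap, the intermediate filament of astrocytes, had 21.3 and 994 CPM at days 18 and 28 with 10 nM, against DMSO pairs of 9.47 and 10.7, and 706 and 711 CPM, and was under 1 CPM in every library before day 18. Its log2 change was 0.65 ± 0.13 (adjusted p = 0.00527), which did not pass with the DMSO pairs summed (adjusted p = 0.109) or without day 28 (adjusted p = 0.053).

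**Figure D2:**
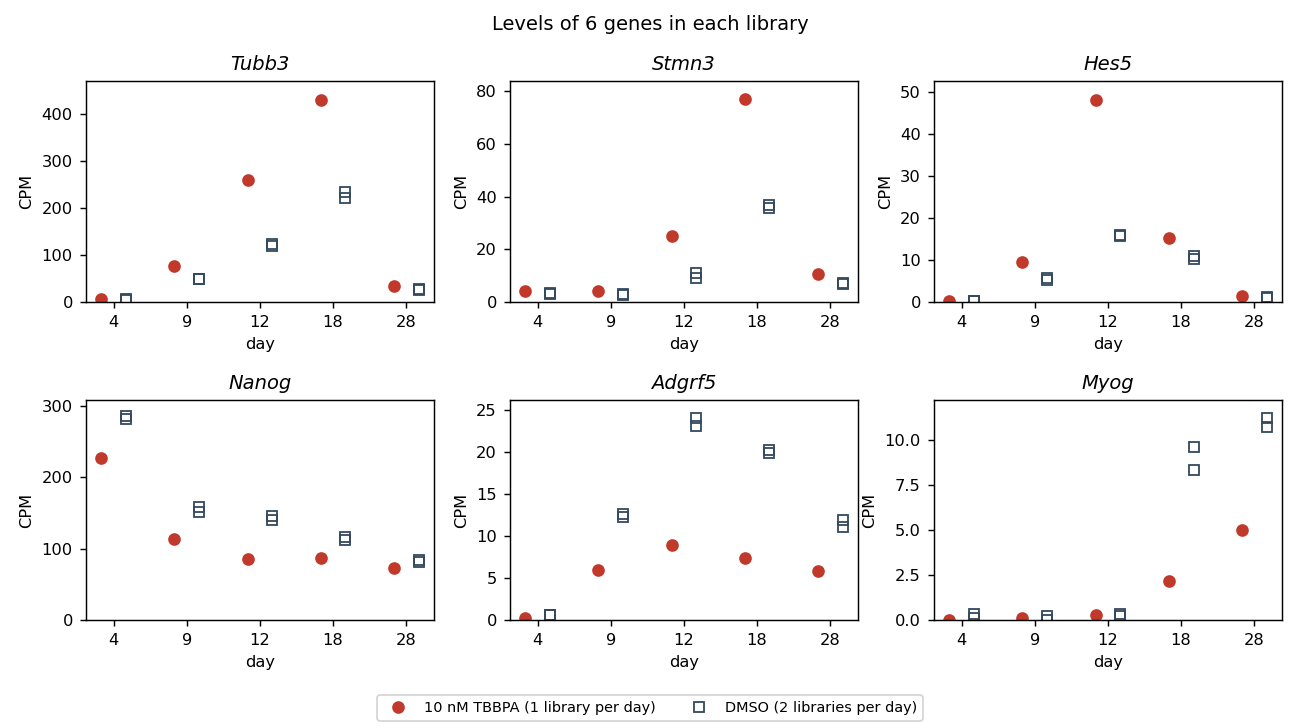
Level in CPM (y axis, linear, from 0) of 6 genes in each library by day (x axis, days evenly spaced), with filled circles for 10 nM and open squares for the 2 DMSO libraries of the day. Tubb3, Stmn3 and Hes5 are above the DMSO pair at days 12 and 18, Nanog and Adgrf5 are below it at every day, and Myog is below it at days 18 and 28.

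Pluripotency genes were lower with 10 nM: 14 of 25 fell, 1 rose and the median was -0.37. Nanog had 227, 114, 86.1, 87.7 and 73 CPM with 10 nM, against DMSO pairs of 282 and 286, 151 and 159, 140 and 146, 112 and 116, and 84.3 and 81.4 CPM. It was below both DMSO libraries at all 5 days, with a log2 change of -0.41 ± 0.05 (adjusted p = 0.000137). Prdm14, a repressor that guards naive pluripotency, had 4.9, 7.29, 5.54, 5.47 and 3.97 CPM with 10 nM, against DMSO pairs of 8.56 and 7.87, 11.1 and 9.86, 10.8 and 9.82, 7.68 and 9.2, and 5.3 and 4.98 CPM, a log2 change of -0.64 ± 0.09. Gdf3, a ligand of the TGF-beta family, fell by 0.38 and the Krüppel-like factor Klf2 by 0.39 on the log2 scale.

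Pou5f1, the factor central to pluripotency, did not pass in the fit over the days. It had 846, 152, 138, 129 and 82 CPM with 10 nM, against DMSO pairs of 814 and 843, 235 and 246, 195 and 187, 132 and 144, and 90 and 84.1 CPM. It was above both DMSO libraries at day 4 and below both at the other 4 days, with a log2 change of -0.25 ± 0.08 and an adjusted p of 0.0625. Without the day 4 library at 10 nM it passed, with -0.33 and an adjusted p of 0.0164. With the DMSO pairs summed, 8 of the 25 pluripotency genes fell and 0 rose. The 1 gene of the list that rose was Otx2, chosen for naming after its value was seen, which primed pluripotent and forebrain cells also express (0.23), and this call was lost without any of 6 single libraries.

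Trophoblast genes fell in 7 of 19 tested, with 0 rises, and 5 of the 19 fell with the DMSO pairs summed. Beside Rhox9, the transcription factor Tfap2c had 16.5, 22.8, 22.3, 18.6 and 11.6 CPM with 10 nM, against DMSO pairs of 20.6 and 20.8, 37.6 and 37.5, 35.6 and 32.6, 28.1 and 26.2, and 18.3 and 18.6 CPM. It was lower at every day, with a log2 change of -0.58 ± 0.05 (adjusted p = 7.74e-06). Several members are expressed outside trophoblast, such as the keratin Krt7 of simple epithelia (-0.65 ± 0.06) and the growth factor Igf2 of many embryonic tissues (-0.32 ± 0.04). Without the day 28 library at 10 nM, 11 of the 19 fell.

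Epithelial genes fell in 13 of 20 tested and rose in 1, with a median of -0.27. Cldn4, a tight junction claudin, had 253, 65.8, 79.1, 85.9 and 124 CPM with 10 nM, against DMSO pairs of 295 and 309, 94.5 and 95.8, 116 and 106, 103 and 112, and 167 and 170 CPM, and fell by 0.40 on the log2 scale (SE 0.04, adjusted p = 1.17e-05). Perp of desmosomes (-0.30 ± 0.04) and Sfn, the 14-3-3 protein of stratified epithelia (-0.43 ± 0.06), were lower as well. Krt5, a keratin of basal cells, moved the other way, with 83.4 and 240 CPM at days 18 and 28 at 10 nM, against DMSO pairs of 49.1 and 48.7, and 197 and 207 CPM (log2 change 0.53 ± 0.10, adjusted p = 0.00338). Krt5 did not pass without the day 18 library at 10 nM (0.34, adjusted p = 0.084). The falls numbered 8 without day 18 and 4 with the DMSO pairs summed.

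Skeletal, cardiac and smooth muscle lists each held more falls than rises. Of 12 skeletal muscle genes tested, 10 fell and 0 rose, with a median of -0.74 and a range of -1.96 to -0.52. Myod1, the master factor of skeletal muscle, was under 0.1 CPM in every library before day 18, and had 0.716 and 1.14 CPM at days 18 and 28 with 10 nM, against DMSO pairs of 3.99 and 5.36, and 3.01 and 3.49 CPM. Myog, the factor of myoblast differentiation, had 2.2 and 5.01 CPM at those days with 10 nM, against DMSO pairs of 8.35 and 9.6, and 11.2 and 10.7 CPM. Both were below both DMSO libraries at days 18 and 28, with log2 changes of -1.96 ± 0.31 for Myod1 (adjusted p = 0.000822) and -1.43 ± 0.24 for Myog (adjusted p = 0.0011). With the DMSO pairs summed, Myod1 had an adjusted p of 0.0509 and Myog of 0.0416, and without day 18 the values were 0.0752 and 0.0555.

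The embryonic myosin heavy chain gene Myh3, picked for naming after its values were seen, had 5.27 and 20.3 CPM at days 18 and 28 with 10 nM, against DMSO pairs of 22.5 and 26.5, and 37.6 and 40.1 CPM, a log2 change over all days of -1.17 ± 0.25. Acta1, skeletal alpha actin, had 66, 41.9, 21.9, 9.36 and 46.3 CPM with 10 nM, against DMSO pairs of 88.4 and 79.4, 54.5 and 49.6, 35.6 and 36.5, 19.9 and 19.4, and 68.8 and 74.7 CPM. Unlike Myod1 and Myog it was measurable and lower at all 5 days, with a log2 change of -0.57 ± 0.08 (adjusted p = 0.000292). The skeletal count rests on the last days: 6 members fell without the 10 nM library of day 18, 6 without that of day 28, and 3 without day 18 as a whole. It was 6 by DESeq2 and 2 with the DMSO pairs summed or by limma on FPKM.

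The windows before Acta1 and Mylpf, the fast skeletal myosin light chain (-0.68 ± 0.13), are shown because both genes fell and both hold the E-box CAGCTG in capitals. With the DMSO pairs summed, Mylpf did not pass (adjusted p = 0.0706). They are again the 250 bases before the RefSeq start on GRCm38.p6. Acta1 lies at chr8:123894776-123895025 on the minus strand and Mylpf at chr7:127211358-127211607 on the plus strand, with 1 copy each. Of the 8 skeletal muscle genes that fell and had a window, 3 held it (37.5%, of 10 that fell), beside the 14.7% of all genes given above.
Acta1: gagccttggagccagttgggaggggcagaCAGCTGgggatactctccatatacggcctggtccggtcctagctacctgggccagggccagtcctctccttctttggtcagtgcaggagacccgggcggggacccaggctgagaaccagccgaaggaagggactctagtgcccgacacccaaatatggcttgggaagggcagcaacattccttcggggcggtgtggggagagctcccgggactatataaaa
Mylpf: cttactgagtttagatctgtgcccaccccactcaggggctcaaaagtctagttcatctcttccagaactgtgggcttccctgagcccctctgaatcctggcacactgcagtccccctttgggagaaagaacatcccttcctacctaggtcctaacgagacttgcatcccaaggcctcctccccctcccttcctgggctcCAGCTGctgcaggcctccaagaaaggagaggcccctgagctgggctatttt

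Among 24 cardiac muscle genes, 8 fell and 1 rose, with a median of -0.36. Myh6, the alpha myosin heavy chain of the heart, had 7.38, 9.13, 38.6, 41.7 and 41.1 CPM with 10 nM, against DMSO pairs of 8.26 and 8.84, 15.7 and 14.2, 49.4 and 47, 70.6 and 65.7, and 63.5 and 67.9 CPM. It was lower at every day and fell by 0.55 on the log2 scale (SE 0.06, adjusted p = 4.74e-05). Tnnt2, cardiac troponin T, fell by 0.53 (SE 0.13), and did not pass without the day 18 library at 10 nM (-0.40, adjusted p = 0.101). The rise was Hcn4, a pacemaker channel (0.43), named after its value was seen, and it was lost without any of 9 single libraries. The falls numbered 4 without day 18 and 1 with the DMSO pairs summed. Smooth muscle genes fell in 5 of 12, led by Smtn, the cytoskeletal protein smoothelin (-0.18 ± 0.04, and -0.14 with an adjusted p of 0.0572 without the day 18 library at 10 nM). This count was 0 without the day 18 library at 10 nM or with the DMSO pairs summed, 2 without the 10 nM library of day 28 or the second DMSO library of day 18, and 3 without any of 6 other libraries.

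Fibroblast matrix genes fell in 14 of 22 and rose in none, with a median of -0.36. Fn1, the matrix protein fibronectin, had 352, 1410, 1308, 1047 and 1290 CPM with 10 nM, against DMSO pairs of 409 and 414, 1459 and 1452, 1994 and 1981, 1423 and 1391, and 1808 and 1861 CPM. It was below both DMSO libraries at all 5 days, with a log2 change of -0.36 ± 0.06 (adjusted p = 0.00101). Col1a1, a chain of type I collagen, had 4.96, 195, 608, 1388 and 3604 CPM with 10 nM, against DMSO pairs of 6.01 and 5.93, 181 and 188, 792 and 731, 1866 and 2000, and 5790 and 6040 CPM. It was above the pair at day 9 and below it at the other days (log2 change -0.36 ± 0.09, adjusted p = 0.0166), and did not pass without the 10 nM library of day 12 (adjusted p = 0.0752) or day 18 (adjusted p = 0.0929). The collagen crosslinking enzyme Lox fell by 0.57 on the log2 scale (SE 0.09), with an adjusted p of 0.052 with the DMSO pairs summed. The count for this list was 4 without the day 18 library at 10 nM, 6 without that of day 28, 9 without that of day 12 or either DMSO library of day 18, and 1 with the DMSO pairs summed.

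BMP and TGF-beta pathway genes fell in 8 of 28 and rose in 1. The ligands Nodal (-0.40 ± 0.06) and Bmp4 (-0.34 ± 0.06) and the Nodal inhibitor Lefty1 (-0.31 ± 0.05) were lower, and 4 of the 28 genes fell with the DMSO pairs summed.

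**Figure D3:**
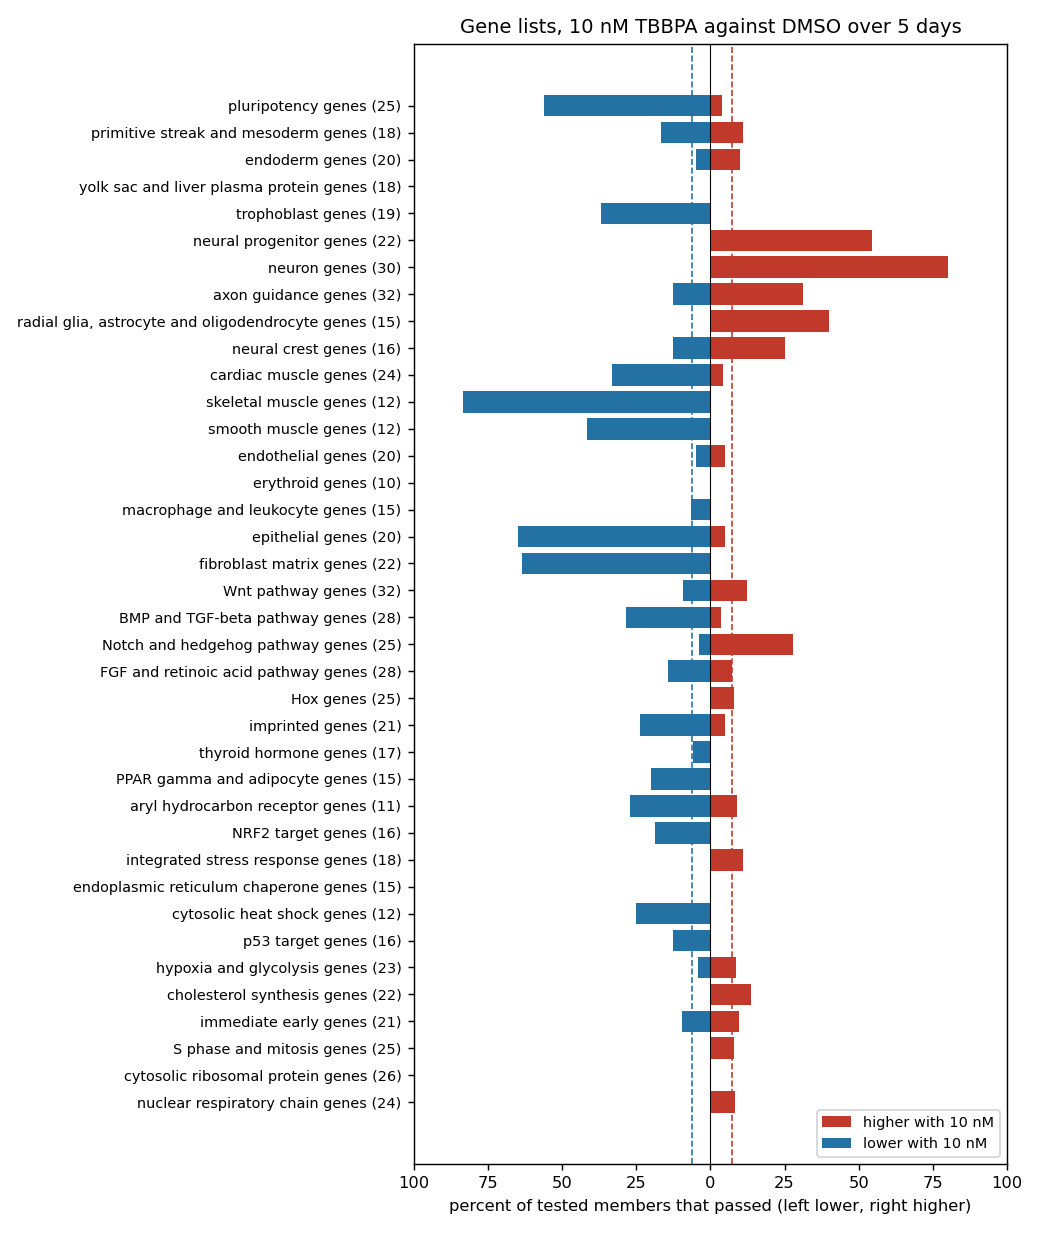
Percent of the tested members of each of 38 gene lists (number tested in brackets) that passed with 10 nM against DMSO over 5 days, higher to the right and lower to the left, with the share over all genes tested (7.30% higher, 6.15% lower) as dashed lines. Bars for neuron and neural progenitor genes extend to the right only, and bars for skeletal muscle, fibroblast matrix and trophoblast genes to the left only.

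Other lineages and pathways had smaller shares, to be read against the 7.30% of all genes tested that rose and the 6.15% that fell. Primitive streak and mesoderm genes gave 2 rises and 3 falls of 18, with T, the primitive streak factor brachyury, higher (0.50 ± 0.12) and Hand1 of heart and placenta lower (-0.62 ± 0.13, with an adjusted p of 0.0657 without the day 12 library at 10 nM). T did not pass without the 10 nM library of day 12 (adjusted p = 0.0615) or day 18 (adjusted p = 0.0528), or with the DMSO pairs summed (adjusted p = 0.13). Hand1 did not pass with the pairs summed either (adjusted p = 0.0967). Endothelial genes gave 1 rise of 20, Tal1 of blood and vessel progenitors (0.80 ± 0.14), and 1 fall, the adhesion molecule Pecam1 (-0.50 ± 0.06). The other 18 did not pass and the list median was -0.04, so neither call stands for the list. Leukocyte genes gave 1 fall of 15, the macrophage receptor Csf1r (-0.61 ± 0.11). In Wnt signalling 4 of 32 rose, among them Wnt7a (0.67 ± 0.11), and 3 fell, and the rises numbered 10 without the day 28 library at 10 nM and 1 or 2 without any of 10 others. With the DMSO pairs summed, 0 of the 32 rose and 0 fell, and Wnt7a had an adjusted p of 0.0638. FGF and retinoic acid genes gave 2 rises and 4 falls of 28, neural crest genes 4 rises and 2 falls of 16, Hox genes 2 rises of 25, and imprinted genes 1 rise and 5 falls of 21. The rises of Hox genes and of FGF and retinoic acid genes were near the share over all genes. Erythroid genes gave 0 of 10 in each direction. Among the 20 fixed markers, 5 rose and 7 fell, and 3 and 4 did so without the day 18 library at 10 nM. Counts this small moved when single libraries were left out, for Wnt falls between 1 and 6, for FGF and retinoic acid rises between 1 and 5 and falls between 1 and 6, for neural crest rises between 2 and 5, for mesoderm rises between 0 and 4 and for Hox rises between 0 and 2.

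Genes of receptors and responses linked to chemical exposure gave 0 to 3 falls and 0 to 3 rises a list, to be read against the 6.15% of all genes that fell and 7.30% that rose. Of 17 thyroid hormone genes, 1 fell, the transcription factor Klf9 (-0.20 ± 0.05), which did not pass without the day 12 library at 10 nM (-0.14, adjusted p = 0.0672). The receptor genes Thra and Thrb had log2 changes of 0.15 ± 0.06 and -0.05 ± 0.17 and did not pass, though Thra did without the day 4 library at 10 nM (0.20, adjusted p = 0.019). Pparg fell by 0.70 (SE 0.18, adjusted p = 0.0141), with 0.0605, 1.78, 2.43, 1.99 and 2.84 CPM at 10 nM, against DMSO pairs of 0.121 and 0.303, 3.68 and 3.23, 4.76 and 5.4, 4.15 and 3.59, and 2.19 and 2.77 CPM. It was lower at days 4 to 18 and above the pair at day 28, and it did not pass with the DMSO pairs summed (adjusted p = 0.124) or without the 10 nM library of day 12 (adjusted p = 0.0844) or day 18 (adjusted p = 0.0768). In all, 3 of 15 PPAR gamma and adipocyte genes fell and 0 rose.

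Cyp1a1, the detoxifying enzyme induced by the aryl hydrocarbon receptor, stayed under 2 CPM in every library and had a log2 change of 0.36 ± 0.28 (adjusted p = 0.434). Cyp1b1 of the same response had -0.13 ± 0.06 (adjusted p = 0.185), and passed without the day 9 library at 10 nM (-0.20, adjusted p = 0.0231). That list gave 1 rise of 11, the partner protein Arnt2 (0.45 ± 0.07), which is also expressed in neurons, and 3 falls. NRF2 target genes gave 3 falls of 16, cytosolic heat shock genes 3 falls of 12 led by Hspb1 (-0.52 ± 0.08), p53 target genes 2 falls of 16, and integrated stress response genes 2 rises of 18. Endoplasmic reticulum chaperones and cytosolic ribosomal protein genes gave 0 of 15 and 0 of 26 in each direction. S phase and mitosis genes gave 2 rises of 25, cholesterol synthesis genes 3 rises of 22, respiratory chain genes 2 rises of 24, hypoxia and glycolysis genes 2 rises and 1 fall of 23, and immediate early genes 2 rises and 2 falls of 21. Without single libraries the falls ran from 0 to 3 for aryl hydrocarbon receptor genes, 1 to 3 for NRF2 targets and 1 to 4 for p53 targets, and the rises from 0 to 5 for integrated stress response genes and 0 to 5 for hypoxia and glycolysis genes. Likewise the rises ran from 0 to 3 for respiratory chain genes, 1 to 2 for S phase and mitosis genes and 3 to 5 for cholesterol synthesis genes, and both rises and falls from 1 to 4 for immediate early genes. With the DMSO pairs summed, aryl hydrocarbon receptor genes gave 1 rise and 0 falls. Heat shock, p53 target and immediate early genes then gave 1 fall each and 0 rises. Thyroid hormone, PPAR gamma, NRF2, integrated stress response, cholesterol, hypoxia, S phase and respiratory chain genes gave 0 in each direction.

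Differences between the 10 nM library and the DMSO pair were then compared across days. In edgeR's test of the interaction of dose and day, 4858 of 16482 genes passed (29.5%), with 5 residual degrees of freedom that come only from the DMSO pairs, so each 10 nM library was assumed to vary like the DMSO libraries. With 1 library at 10 nM per day, a day effect and the variation of a single 10 nM library cannot be told apart. DESeq2's likelihood ratio test called 1127. Over the 15952 genes tested for 10 nM over days, the median absolute log2 difference of the 10 nM library from the DMSO mean was 0.111, 0.121, 0.192, 0.154 and 0.128 at days 4, 9, 12, 18 and 28. The median gap within the DMSO pair was 0.098, 0.077, 0.085, 0.080 and 0.078. Larger differences were counted only among the 11900 of these genes that averaged at least 2 log2 CPM over the 20 libraries. At day 12, 65 of the 11900 were over 1 log2 unit higher and 34 lower, with 4 genes that far apart in the DMSO pair. At day 4 those counts were 19 higher and 41 lower with 10 nM, and 64 in the DMSO pair.

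Neuron genes differed between days in 21 of 30, with medians of 0.02, 0.41, 0.87, 0.56 and 0.31 at days 4, 9, 12, 18 and 28. Pluripotency genes differed in 22 of 25, with medians of -0.32, -0.51, -0.58, -0.13 and -0.09. Skeletal muscle genes had medians of -0.15, 0.01, -0.15, -1.63 and -0.91, and fibroblast matrix genes -0.12, 0.11, -0.24, -0.53 and -0.54. The median over all genes lay between 0.00 and 0.03 at each day.

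**Figure D4:**
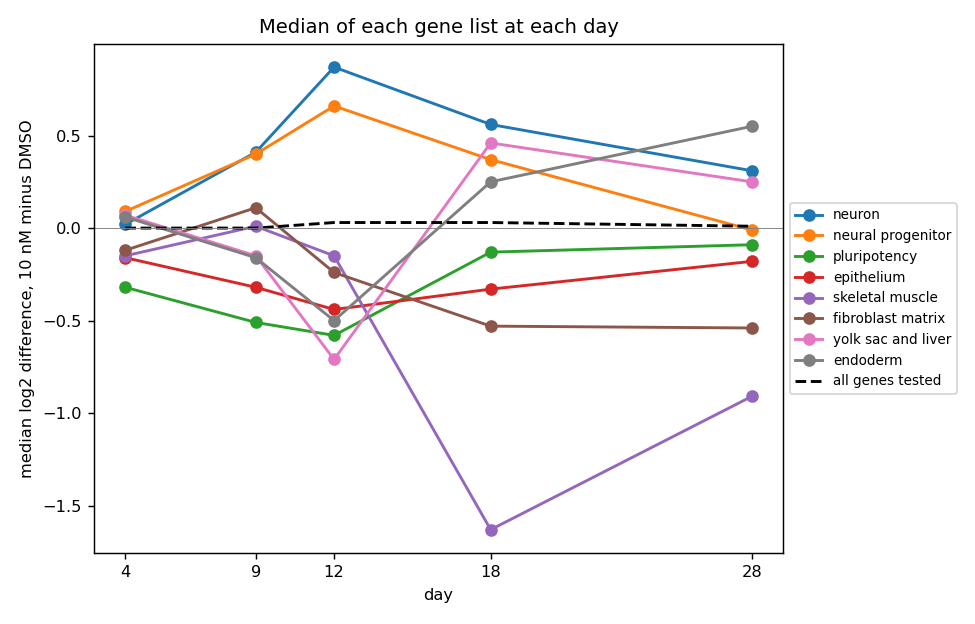
Median log2 difference of the 10 nM library from the DMSO mean (y axis) over the tested members of 8 gene lists at each day (x axis, to scale), with the median over all genes tested as a dashed line. Neuron genes peak at day 12 with 0.87, skeletal muscle genes are lowest at day 18 with -1.63, and yolk sac and liver genes cross from -0.71 at day 12 to 0.46 at day 18.

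Yolk sac and liver plasma protein genes had differences of opposite sign in the 10 nM libraries of days 12 and 18. None of 18 passed in the fit over the days, whereas 17 of 18 differed between days, with medians of 0.07, -0.15, -0.71, 0.46 and 0.25. Afp, the fetal plasma protein alpha-fetoprotein, had 5.02, 262, 193, 437 and 61.8 CPM with 10 nM, against DMSO pairs of 3.52 and 4.42, 289 and 300, 360 and 373, 213 and 217, and 73.4 and 78.6 CPM. It was lower at day 12 by 0.92 and higher at day 18 by 1.02 on the log2 scale, outside the DMSO pair both times, and its adjusted p for a difference between days was 1.31e-27. With 100 nM, Afp was lower than DMSO at both days, with log2 differences of -1.32 at day 12 and -0.45 at day 18, so the higher level at day 18 was seen in the 10 nM library alone. Trf, the iron carrier transferrin, had 3.81, 60.1, 59.9, 149 and 37.9 CPM with 10 nM, against DMSO pairs of 4.37 and 3.75, 60.6 and 62.7, 122 and 122, 71.6 and 73.7, and 55.6 and 52.7 CPM. Its differences with 100 nM were -1.52 at day 12 and -0.58 at day 18.

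Apob, the main apolipoprotein of lipid secretion by yolk sac and liver, had 147 CPM at day 12 and 85.6 CPM at day 18 with 10 nM, against DMSO pairs of 319 and 333, and 71.4 and 63.4 CPM. With 100 nM, Apob had differences of -1.10 and -0.36 at those days. The definitive and visceral endoderm list behaved in a like way, with 2 rises and 1 fall of 20 in the fit over the days and 20 of 20 differing between days. Its medians were 0.06, -0.16, -0.50, 0.25 and 0.55. Foxa2, the forkhead factor of endoderm and floor plate, was above both DMSO libraries at all 5 days, with 4.41, 50.8, 77.4, 71.1 and 69.8 CPM at 10 nM, against DMSO pairs of 3.95 and 3.09, 48.3 and 48.3, 53 and 52, 57.2 and 56, and 43.9 and 47.5 CPM (log2 change 0.40 ± 0.06, adjusted p = 0.000574). Of the other genes with the smallest p between days, Podxl, a sialomucin of apical membranes, had 740 CPM at day 28 with 10 nM, against 489 and 479 CPM with DMSO. The gastric protease gene Pga5 had 139 CPM at day 28 with 10 nM, against 63.2 and 64.1 CPM with DMSO. Postn, the matrix protein periostin, had 210 CPM at day 9 and 303 CPM at day 28 with 10 nM, against DMSO pairs of 144 and 140, and 435 and 438 CPM.

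The 10 nM and 100 nM libraries were compared directly with the day as a factor. In edgeR, 0 of 16059 genes passed (0%), with 1025 at an unadjusted p under 0.05, and DESeq2 called 7. Leaving out the 100 nM library of day 12 gave 5 calls and that of day 9 gave 2. The test of 100 nM against DMSO, which uses the same controls, called 2416 of 15925 genes (15.2%), 1187 higher and 1229 lower. Neuron genes rose in 24 of 30 with 10 nM and in 22 of 30 with 100 nM, skeletal muscle genes fell in 10 and 6 of 12, pluripotency genes in 14 and 3 of 25, and yolk sac and liver genes in 0 and 9 of 18. These counts come from separate tests against DMSO and are no test of the doses. Median log2 changes with 10 nM and 100 nM were 0.58 and 0.55 for neuron genes and -0.74 and -0.93 for skeletal muscle genes. They were -0.37 and -0.22 for pluripotency genes and -0.03 and -0.43 for yolk sac and liver genes.

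For single genes the interval of the difference between doses (10 nM over 100 nM, log2, 95%) was -0.15 to 0.37 for Tubb3, -0.28 to 0.27 for Adgrf5, -0.46 to 0.28 for Hes5 and -0.12 to 2.39 for Myod1. Nanog had an interval of -0.49 to -0.07 and an adjusted p of 0.664 for the dose difference. Intervals also lay off 0 for Trf (0.50 to 1.61), Afp (0.33 to 1.37), Shh (0.21 to 1.15) and Apob (0.06 to 0.84). Their adjusted p-values were 0.433, 0.473, 0.584 and 0.739. The smallest p-values belonged to Plat, the plasminogen activator, at 0.26 higher with 10 nM (adjusted p = 0.0689), the matrix enzyme Loxl2 at 0.25 (adjusted p = 0.0689), the annexin Anxa5 at 0.28 (adjusted p = 0.076), the protease inhibitor Timp2 at 0.27 and the paraneoplastic antigen family gene Pnma5 at -0.33 (adjusted p = 0.129 for both). Plat had 2.48, 58.2, 68.7, 119 and 318 CPM with 10 nM and 1.7, 51.3, 62, 91.8 and 261 CPM with 100 nM, higher with 10 nM at all 5 days.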

How the data were processed

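Tables of 20 embryoid body libraries were used, 15 of them for the comparison of 10 nM with DMSO. The expected counts per gene were estimated by the authors and carry that name per the file headers, and 64.9 to 66.7% of those in the 15 libraries were exactly whole as deposited, with no tolerance. The authors also deposited an FPKM for each gene, with a lowest listed value of 0.01. HISAT, Bowtie2 and GRCm38.p5 are named per the submitters' processing notes. The counting tool and its use of strand are not given in the sources used here, so overlapping genes are uncertain. Genes absent from a library's table were set to 0; 19664 genes were listed in at least 1 library and 14906 in all 20.

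After rounding of the expected counts, edgeR 4.0.16 (R 4.3.3) was run with TMM scaling, filterByExpr (minimum count 10, total 15), robust quasi-likelihood F tests and Benjamini-Hochberg adjustment over all genes tested, at a threshold of 0.05. Day was a factor, which left 9 residual degrees of freedom. The log2 change over days is the dose effect of this fit, in which days with more counts weigh more. CPM values use TMM library sizes, differences at a day use log2 CPM with a prior count of 2, and each SE was derived from the log2 change and its F. Alternatives were DESeq2 1.42.0, other scalings and filters, limma 3.58.1 on FPKM with pseudocounts of 1 and 0.1 (genes reaching 1 FPKM in 2 libraries), other control libraries, no day term, and leaving out each library or day. The fits were tested on simulated counts. Figures used matplotlib 3.10.9.

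The comparison and the gene lists (774 members in 39 lists, of which 1 holds fixed markers, 766 in the tables, 741 tested) were chosen with earlier results of these data known, so lists get counts and medians without a test. Genes named are the 12 largest rises and 12 largest falls that also passed with the DMSO pairs summed, averaged 2 log2 CPM or more and kept their sign at 4 of 5 days (74 rises and 138 falls qualified), the 6 of smallest p between days, the 5 of smallest p between doses, up to 4 members of smallest p per list, and the fixed markers.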

Additional observations from a re-analysis of the deposited data

Results flagged for a closer look

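The difference of Pakap at day 28 (-1.52 on the log2 scale, 10 nM minus the DMSO mean) lay apart from its differences at the other 4 days, which ran from -0.79 to -0.59. Its gap to the nearest day, divided by the range of the 5 days, was above Dixon's 95% critical value, which chance alone exceeds in about 1 of 20 sets. Among the 24 named rises and falls, 1 had such a day. At that day Pakap had 7.33 CPM with 10 nM, against 25.9 and 17.4 CPM with DMSO.

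For 6 genes the interaction test of dose and day called a difference, with the smallest adjusted p-values among genes of at least 2 log2 CPM: Afp (1.31e-27), Trf (1.26e-25), Podxl (9e-22), Apob (1.04e-21), Postn (1.05e-20) and Pga5 (2.46e-20). Trf was lower than DMSO at day 12 by 1.02 and higher at day 18 by 1.03, Podxl had a difference of -0.77 at day 12 and 0.61 at day 28, and Apob -1.15 at day 12 and 0.35 at day 18. Pga5 had -1.14 at day 12 and 1.12 at day 28, and Postn 0.56 at day 9 and -0.64 at day 12. Each of these days is 1 library at 10 nM. Those libraries alone cannot tell variation of a single library from a day effect. With 100 nM, against the same DMSO libraries, Postn had differences of 0.38 at day 9 and -0.68 at day 12. Podxl had -0.77 at day 12, and 685 CPM at day 28 against 489 and 479 CPM with DMSO. Pga5 had -0.88 at day 12, and 136 CPM at day 28 against 63.2 and 64.1 CPM with DMSO. These signs were the same as with 10 nM. At day 18, Afp, Trf and Apob were lower than DMSO with 100 nM and higher with 10 nM. The cause was not tested.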

How the results depend on the processing

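For 10 nM over days (2145 genes), counts close to the main value came from DESeq2 (1967), other scalings, both filters and all 20 libraries (1555). Limma gave 1286 on log2(FPKM + 1) and 1048 on log2(FPKM + 0.1), the fit with no day term 0 (78 at an unadjusted p under 0.05), DMSO replicate 1 alone 284, replicate 2 alone 264, and summed DMSO pairs 277. Leaving out a library gave 1000 (day 18 at 10 nM) to 2714 (day 28 at 10 nM), and a day 797 (day 18) to 2372. Library size alone called 913 genes higher and 1111 lower. The difference between days (4858) gave 1127 with DESeq2 and 2751 and 1301 with limma, 4293 to 5155 without a library and 3446 to 4826 without a day. With 1 DMSO library per day, or summed pairs, no residual degrees of freedom are left for it. For 10 nM against 100 nM (0), DESeq2 gave 7 and the 10 TBBPA libraries alone 14, leaving out a library 0 to 5 and a day 0 to 4. No called result changed sign. The 24 named rises and falls, chosen to pass with the pairs summed, passed under the other alternatives except Fabp7 in both limma fits, Pakap with DMSO replicate 1 alone, and all of them with no day term. Genes named only for the difference between days or between doses are not in the next counts. Of the remaining genes named by the rule, with the 24 counted among them, 71 lost their call with the pairs summed. The 103 that stayed as in the main fit, passed or not, include the 24 chosen to pass there. With DMSO replicate 1 or 2 alone, 72 (Pakap among them) and 71 lost their call. The cause of these shifts was not tested. No paired analysis was possible because the 10 nM libraries carry no replicate number that would tie one to a single DMSO library; samples were matched by day only, also with summed pairs. Depth limits low genes: Myod1 at 0.054 CPM (day 9, 10 nM) rests on about 1 count.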
